A study of Homo sapiens with 2 samples.

Results

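Mitosis and G2/M genes encode the kinases, cyclins, spindle and kinetochore proteins and cytokinesis factors that carry a cell from the end of G2 through division. The 43 genes described here were chosen by symbol for these functions, with the proliferation marker gene MKI67 among them. All 43 were found among the 16424 genes listed in the deposited values, and all 43 had a mean of at least 1 CPM over both libraries, as did 13724 of the listed genes, which are called tested genes from here on. PLC/PRF/5, a human hepatoma cell line, was either left non-treated (0 µg/ml) or given 3 µg/ml M2BPGi, the glycan isomer of Mac-2-binding protein, for 6 h. Capped RNA from each condition gave 1 library of cap analysis of gene expression (CAGE), in which each tag marks the 5′ end of a capped RNA. The values are tag numbers scaled to the size of the library (CPM), and because a transcript gives 1 tag whatever its length, levels of different genes are compared without dividing by length. The CPM steps gave 24040209 tags for the non-treated and 24862941 tags for the M2BPGi-treated library. With 1 library per condition, no difference described here has a replicate check.

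Transcription of these genes is known to be low in G1 and to peak in G2 and mitosis. In G1 the DREAM complex, in which MuvB proteins sit at a promoter element called the cell cycle genes homology region (CHR), holds many of them silent, and in G2 MuvB joins B-MYB and FOXM1 and the same promoters are activated, often with NF-Y bound to CCAAT boxes nearby. After entry into mitosis the proteins act in sequence, from chromosome condensation and spindle assembly to the checkpoint, the separation of sister chromatids and cytokinesis, and in liver tumours their transcripts are widely used as a measure of proliferation.

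Of the 43 members, 36 had an entry in a table of RefSeq promoter windows (build GRCh38.p14), which cover 250 bases before to 50 bases after an annotated start. FOXM1, AURKA, BIRC5, TTK, TPX2, UBE2C and RACGAP1 are named only. The letters searched, on both strands, were TTTGAA and TTTAAA, which are forms of the CHR, and CCAAT. The form TTTAAA reads the same on both strands, and no CHR form contains CCAAT. In the 100 bases before the start, 23 of the 36 members (63.9%) held a CHR form, against 6.66% of the 8799 tested genes in the table and 8.24% of all 35116 windows. The form TTTGAA alone was in 17 members (47.2%), against 3.83% of the tested genes in the table. CCAAT was in 27 members (75%), against 27.4% of these tested genes and 21.6% of all genes in the table. A CHR form together with CCAAT was in 19 members (52.8%), against 2.47%. These matches are descriptions of the letters in the window, and no binding was measured.

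**Figure D1:**
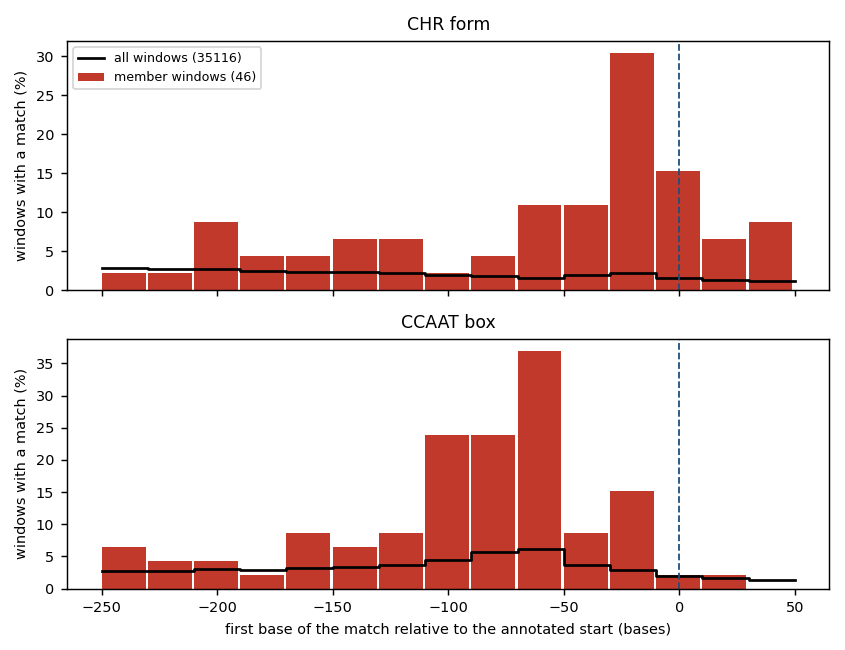
Share of promoter windows (%) with a match to a CHR form (upper panel) or to CCAAT (lower panel) that begins in each stretch of 20 bases, plotted by distance from the annotated start in bases. Bars stand for the 46 windows of 36 members and lines for all 35116 windows. In the members' windows, CHR forms are most frequent from 30 to 11 bases before the start (30.4% of windows, against 2.17% of all) and CCAAT from 70 to 51 bases before it (37.0%, against 6.16%).

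The plot of matches by distance shows CCAAT farther from the start than the CHR forms. To show this arrangement, the 100 bases before the start are printed for the members with a CHR form there among the 8 members with the highest CPM. These are PRC1 (chr15:90994536-90994635, minus strand), PTTG1 (chr5:160421755-160421854, plus strand), CDK1 (chr10:60778378-60778477, plus strand) and CENPA (chr2:26785956-26786055, plus strand), from RefSeq on GRCh38.p14. Each sequence is on the strand of its gene, 5′ to 3′, and ends at the base before the annotated start. PTTG1 and CDK1 have 2 windows each in the table, and 1 of them is shown. Capitals mark CHR forms and CCAAT on either strand, so that CCAAT on the other strand reads ATTGG.
PRC1: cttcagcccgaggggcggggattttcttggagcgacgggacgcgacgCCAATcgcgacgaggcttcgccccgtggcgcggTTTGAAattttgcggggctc
PTTG1: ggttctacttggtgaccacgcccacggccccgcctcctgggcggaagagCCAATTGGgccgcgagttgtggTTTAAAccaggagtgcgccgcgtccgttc
CDK1: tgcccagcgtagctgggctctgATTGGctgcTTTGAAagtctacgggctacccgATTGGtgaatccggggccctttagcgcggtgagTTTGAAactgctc
CENPA: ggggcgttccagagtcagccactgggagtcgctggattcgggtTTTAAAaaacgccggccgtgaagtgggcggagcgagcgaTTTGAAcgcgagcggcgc
In PRC1 the CHR form begins 20 bases before the start and CCAAT 53 bases before it. In PTTG1 the CHR form begins at 29 bases, and CCAAT matches on both strands overlap at 51 and 48 bases. CDK1 has CHR forms at 69 and 13 bases and CCAAT at 78 and 46 bases, and CENPA has CHR forms at 57 and 18 bases with no CCAAT in this stretch.

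The members were well covered in both libraries. Their mean level over the libraries ran from 6.46 CPM for CENPE to 306 CPM for AURKA with a median of 48.8 CPM, and 34 of the 43 were above the median of all tested genes, 20.9 CPM. The number of tags behind a member's value ran from 133 to 7775. AURKA, TPX2, PRC1, PTTG1 and ECT2 were the most abundant, and these 5 genes took 34.7% of the members' summed CPM without and 33.9% with M2BPGi. The order of the members by level was much the same in both libraries (Spearman's rho 0.97 across 43 genes, which share their libraries and are not replicates).

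**Figure D2:**
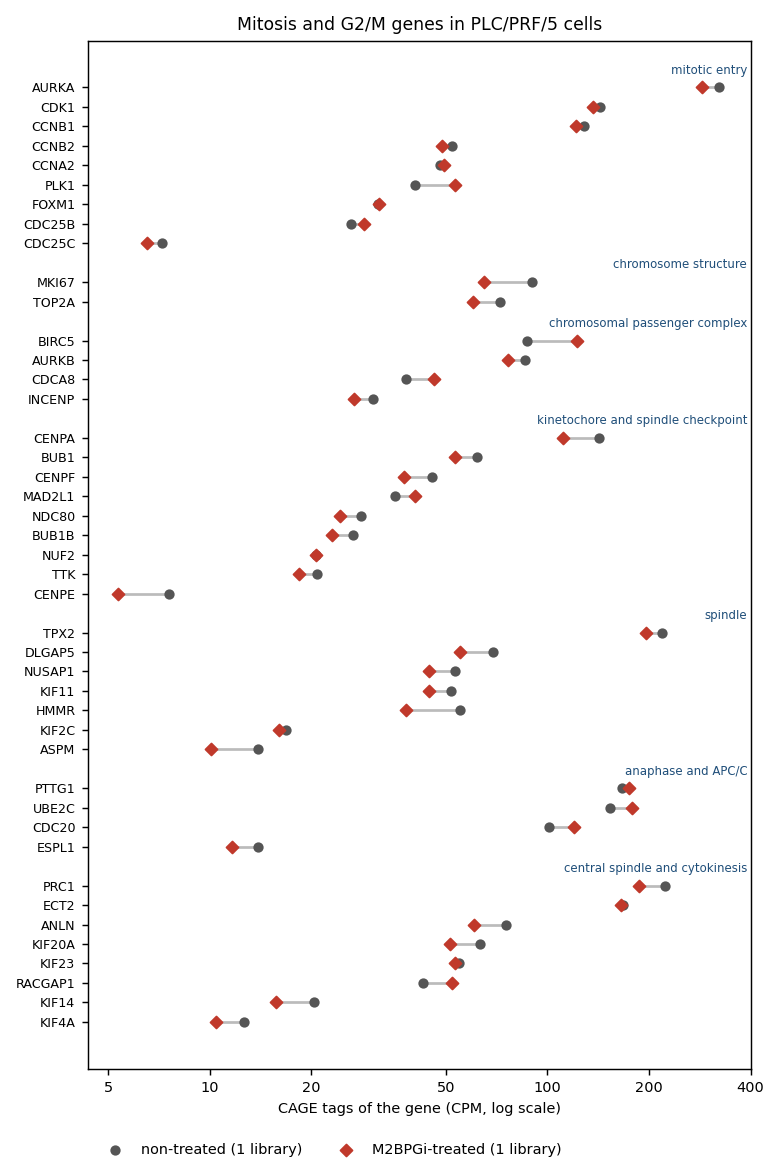
CPM of each of the 43 mitosis and G2/M genes on a log scale, grouped by role and ordered by level. Circles are the non-treated library and diamonds the M2BPGi-treated library, 1 library each, joined by a line for each gene. AURKA is the most abundant in both (323 and 288 CPM) and CENPE and CDC25C are the least abundant.

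The members summed to 3167 CPM without and 2981 CPM with M2BPGi (log2 ratio -0.09, 95% Clopper-Pearson interval of the tag ratio -0.10 to -0.07). This value was -0.035 when the ratios were shifted to a median log2 ratio of 0 over all tested genes, called scaling to equal medians from here on. It was -0.049 when the libraries were scaled to equal upper quartiles, and both values were outside that interval. These scalings raise each summed ratio, those of the roles included, by 0.05 and 0.04. All intervals given here are of this kind and cover counting error only. For single genes, ratios of treated over non-treated CPM were put on the log2 scale after adding 1 CPM to each value, which understates the difference of low genes. The median log2 ratio of the members was -0.17, with quartiles of -0.26 and 0.01, and that of all tested genes was -0.05, with quartiles of -0.26 and 0.14. Of the members, 32 (74.4%) were below 0 and 11 (25.6%) above it, against 57.0% and 42.9% of the tested genes. A smaller share of cells in G2 and mitosis and less RNA of these genes per cell cannot be told apart in such bulk samples.

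A gene was called lower or higher when it differed by at least 0.32 on the log2 scale. By this rule 7 of the 43 members (16.3%) fell, HMMR, MKI67, CENPE, ASPM, KIF14, CENPA and DLGAP5, and 18.4% of all tested genes were called lower. The rule called 2 members (4.65%) higher, BIRC5 and PLK1, and 9.04% of all tested genes. The share called lower was near the background and the share called higher rests on 2 genes, so neither is read as a property of the members. At a fold of 1.5, 0 members were called in either direction, against 4.04% of tested genes lower and 1.6% higher. All 43 members lay within the central 95% of the tested genes, -0.67 to 0.52. Among genes with a mean of at least 10 CPM, which leaves out CENPE and CDC25C, 6 of 41 members were called lower (15.6% of genes) and 2 higher (8.82% of genes). With the treated library rescaled so that the median over all tested genes was 0, 4 members were called lower and 4 higher (CDCA8 and RACGAP1 besides BIRC5 and PLK1), beside 14.0% and 12.5% of all tested genes. The calls of HMMR, MKI67 and ASPM among the lower members, and of BIRC5 and PLK1, held under every pseudocount and scaling tried, and those of CENPA, CENPE, DLGAP5 and KIF14 did not.

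The counting intervals describe these libraries and not the conditions. They lay below an equal share of tags for 25 members (58.1%), against 31.5% of the tested genes, and above it for 8 members (18.6%), against 22.8%. With a mean of at least 10 CPM, 24 of 41 members (58.5%) were below, against 34.8% of genes, and 8 (19.5%) above, against 28.9%. An interval narrows as the number of tags grows, and the members are more abundant than most genes, so these shares depend on depth.

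**Figure D3:**
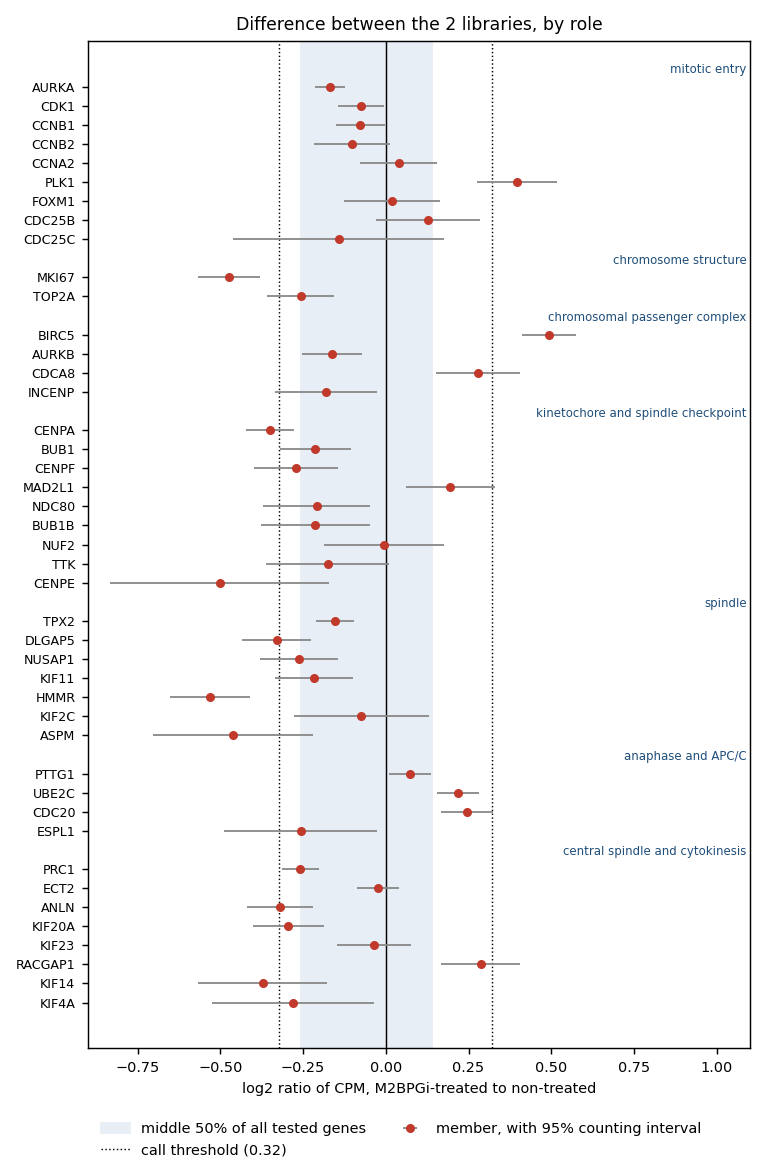
Log2 ratio of CPM, M2BPGi-treated to non-treated, for the 43 mitosis and G2/M genes by role, without a pseudocount. Points are genes with 1 library per condition, bars are 95% intervals of counting error only, dotted lines mark the threshold of the call (0.32) and the shaded band holds the middle 50% of all tested genes (ratios with 1 CPM added). The 7 spindle genes all lie below 0, and BIRC5 and PLK1 lie farthest to the right.

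The genes of mitotic entry showed small differences, with PLK1 as the exception. PLK1, a kinase that matures centrosomes and helps to start mitosis, rose from 40.5 in non-treated cells to 53.3 CPM (log2 ratio 0.39, interval 0.28 to 0.52). CDK1, the kinase that drives entry into mitosis and whose promoter stretch is printed above, had 144 and 136 CPM. Its partner cyclins had 128 and 122 CPM (CCNB1), 52.3 and 48.7 CPM (CCNB2) and 48.1 and 49.4 CPM (CCNA2). CDK1 and these cyclins had log2 ratios from -0.10 to 0.04, and none was called. CDC25B, a phosphatase that removes inhibitory phosphates from CDK1, had 26.3 and 28.7 CPM. Its relative CDC25C had 7.20 and 6.52 CPM, and the intervals of both phosphatases included 0. FOXM1, the transcription factor that activates many of the other members, had 31.4 and 31.8 CPM (log2 ratio 0.02, interval -0.13 to 0.16). AURKA, a centrosomal kinase needed for spindle assembly, had 323 and 288 CPM (log2 ratio -0.17, interval -0.22 to -0.12). The first 500 nt of an AURKA transcript match part of RAB3GAP2 at 96.0% identity over 278 nt, so some of its tags could have been assigned there. The 9 genes of this role summed to 801 and 764 CPM (log2 ratio -0.07, interval -0.10 to -0.04), and 0 were called lower.

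Both genes of chromosome structure had a log2 ratio below 0, and MKI67 passed the call. MKI67 (chromosome 10) encodes Ki-67, which coats mitotic chromosomes and keeps them apart. It fell from 90.2 to 64.9 CPM (log2 ratio -0.47, interval -0.57 to -0.38). TOP2A, the topoisomerase that untangles sister chromatids, had 72.2 and 60.4 CPM (log2 ratio -0.25, interval -0.36 to -0.16).

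The chromosomal passenger complex corrects faulty attachments of chromosomes to the spindle and later acts in cytokinesis. Its 4 genes had log2 ratios of both signs. BIRC5 (chromosome 17), which encodes survivin, the subunit that brings the complex to centromeres, rose from 86.8 to 122 CPM (log2 ratio 0.49, interval 0.41 to 0.57). This was the highest ratio of the 43 members. CDCA8, which encodes borealin, a partner of survivin, had 38.2 and 46.3 CPM (log2 ratio 0.27, interval 0.15 to 0.40). AURKB, the kinase of the complex, had 85.9 and 76.7 CPM (log2 ratio -0.16, interval -0.25 to -0.07). INCENP, the scaffold that binds and activates this kinase, had 30.4 and 26.8 CPM (log2 ratio -0.17). The values for survivin and borealin were thus above 0 and those for the kinase and its scaffold below 0. The 4 genes summed to 241 and 272 CPM (log2 ratio 0.17, interval 0.12 to 0.22). BIRC5 alone rose by more CPM than this sum did. No interval was taken for the other genes of the complex together, so no direction is read for them.

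Of the 9 kinetochore and spindle checkpoint genes, 8 had a log2 ratio below 0, and CENPA and CENPE fell. CENPA (chromosome 2), the histone variant that marks centromeres, fell from 142 to 111 CPM (log2 ratio -0.35, interval -0.42 to -0.28). CENPE (chromosome 4), a motor that moves chromosomes to the spindle equator, fell from 7.57 to 5.35 CPM (log2 ratio -0.43), and its interval of -0.83 to -0.17 was the widest of the members called, since few tags stand behind it. The call of CENPA ended under the scalings to equal medians (-0.29) and upper quartiles (-0.31), and that of CENPE with a pseudocount of 5 CPM (-0.28). CENPF, a large protein of the outer kinetochore, had 45.5 and 37.6 CPM (-0.27). NDC80 and NUF2 encode a pair of proteins that together hold microtubules at the kinetochore. NDC80 had 28.0 and 24.25 CPM (log2 ratio -0.20), and NUF2 had 20.7 and 20.6 CPM (log2 ratio -0.01). The sign of NUF2 turned when the libraries were rescaled to equal medians (0.05).

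The spindle checkpoint delays anaphase until all kinetochores are attached. Its kinase BUB1 had 61.8 and 53.3 CPM (log2 ratio -0.21, interval -0.32 to -0.11). BUB1B, which encodes the checkpoint protein BubR1, had 26.6 and 23.0 CPM (-0.20). TTK, the kinase that starts checkpoint signalling, had 20.8 and 18.4 CPM, and its interval of -0.36 to 0.01 included 0. MAD2L1, whose product holds CDC20 inactive, was the member of this role above 0, with 35.5 and 40.6 CPM (log2 ratio 0.19, interval 0.06 to 0.33). MAD2L1 has a processed pseudogene that matches 160 nt at 96.9% identity and is listed at 0 in both libraries. Together the 9 genes had 388 and 335 CPM (log2 ratio -0.22, interval -0.26 to -0.17).

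All 7 spindle genes had a log2 ratio below 0, under each of the rescalings as well as with the values as deposited, and HMMR, ASPM and DLGAP5 fell. HMMR (chromosome 5), a microtubule-binding protein that helps to position the spindle, fell from 55.3 to 38.25 CPM. Its log2 ratio of -0.52 (interval -0.65 to -0.41) was the lowest of the 43 members. ASPM (chromosome 1), which acts at the spindle poles, fell from 13.85 to 10.1 CPM (log2 ratio -0.43, interval -0.70 to -0.22). DLGAP5 (chromosome 14), which stabilises microtubules that end at kinetochores, fell from 69.3 to 55.1 CPM (log2 ratio -0.32, interval -0.43 to -0.23), and was the called member nearest the threshold. Its call ended with a pseudocount of 5 CPM (-0.31) and under the scalings to equal medians (-0.27) and upper quartiles (-0.29). NUSAP1, a protein that bundles microtubules near chromosomes, had 53.45 and 44.6 CPM (-0.26). KIF11, the motor that pushes the spindle poles apart, had 51.8 and 44.5 CPM (-0.21). TPX2, which activates AURKA on the spindle, had 218 and 196 CPM (log2 ratio -0.15, interval -0.21 to -0.10), close to the ratio of AURKA itself. KIF2C, which shortens microtubules, had 16.85 and 16.0 CPM, a log2 ratio of -0.07 with an interval that included 0. The 7 genes summed to 479 and 405 CPM (log2 ratio -0.24, interval -0.28 to -0.20).

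The anaphase genes act with the anaphase-promoting complex (APC/C), the ubiquitin ligase that ends mitosis, and 3 of the 4 had a log2 ratio above 0, while 0 of them passed the call. CDC20, which activates the APC/C in mitosis, had 101 and 119.9 CPM (log2 ratio 0.24, interval 0.17 to 0.32). UBE2C, an enzyme that supplies ubiquitin for the APC/C, had 154 and 179 CPM (log2 ratio 0.22, interval 0.16 to 0.28). PTTG1 encodes securin, which the APC/C destroys to free separase. It had 166 and 175 CPM (log2 ratio 0.07, interval 0.01 to 0.14). ESPL1, which encodes separase, the protease that cuts cohesin, had 13.9 and 11.6 CPM (log2 ratio -0.24, interval -0.49 to -0.03). The inhibitor and the protease thus had ratios on opposite sides of 0. The 4 genes summed to 435 and 485 CPM (log2 ratio 0.16, interval 0.12 to 0.20).

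Of the 8 genes of the central spindle and cytokinesis, 7 had a log2 ratio below 0, and KIF14 fell. KIF14 (chromosome 1), a motor needed to finish cytokinesis, fell from 20.3 to 15.7 CPM (log2 ratio -0.35, interval -0.57 to -0.18). Its call ended with a pseudocount of 5 CPM (-0.290) and under the scalings to equal medians (-0.300) and upper quartiles (-0.316). ANLN, a scaffold of the contractile ring, had 75.6 and 60.6 CPM (log2 ratio -0.31, interval -0.42 to -0.22), just short of the threshold. PRC1, which cross-links the microtubules of the central spindle and has the CHR form shown in its promoter stretch, had 223 and 187 CPM (log2 ratio -0.26, interval -0.32 to -0.20). KIF4A, the motor that works with PRC1, had 12.65 and 10.4 CPM (log2 ratio -0.26). KIF20A, which carries the chromosomal passenger complex to the central spindle, had 63.1 and 51.5 CPM (-0.29).

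KIF23 and RACGAP1 encode the partners of centralspindlin, which brings the RhoA activator ECT2 to the cell equator. KIF23 had 54.7 and 53.4 CPM (log2 ratio -0.03), and ECT2 had 168 and 165 CPM (log2 ratio -0.02). The intervals of both included 0, and their signs turned when the libraries were rescaled to equal medians (0.02 and 0.03). RACGAP1 had 42.9 and 52.3 CPM (log2 ratio 0.28, interval 0.17 to 0.41), and was the member of this role above 0. The 8 genes summed to 660.2 and 596 CPM (log2 ratio -0.15, interval -0.18 to -0.12).

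Of the 43 members, 6 have a near-identical copy under another gene in the annotation, so the gene of some of their tags is uncertain. Besides AURKA and MAD2L1, they are CDC20, KIF4A, NUSAP1 and PRC1, and the genes matched by the last pair are not among the listed genes. Positions of the matches were not compared, so a match can lie at the member's own locus. CDC20P1 had 6.24 and 7.52 CPM, and CDC20 with this copy had a log2 ratio of 0.25. KIF4B had 8.74 and 7.16 CPM, and KIF4A with KIF4B had a log2 ratio of -0.27. PTTG1 has a listed relative, PTTG3P, at 0.87 and 0.97 CPM, and together they had a log2 ratio of 0.07. Each sum had the same sign as the member alone. The 37 members without a near-identical copy had a median log2 ratio of -0.16. Of these, 7 were called lower and 2 higher, beside 18.4% and 9.04% of all tested genes.

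The log2 ratios of the members went down with transcript length. With the longest coding transcript of each gene in GENCODE v29 as its length, Spearman's rho was -0.50 across the 43 members, and -0.24 across the 11226 tested genes with a length (81.8%). Genes are not independent replicates, and these points share their libraries. In the shortest length quartile of all these genes, up to 2151 nt, the 8 members had a median of -0.04 and all genes one of 0.07. In the next quartile, from 2152 to 3376 nt, 14 members had a median of -0.09 against -0.03. From 3377 to 5164 nt, 13 members had a median of -0.17 against -0.08. In the longest quartile, 8 members had a median of -0.31 against -0.12, and 4 of them fell, CENPE (8612 nt), ASPM (10887 nt), MKI67 (12678 nt) and KIF14 (7274 nt), where 21.3% of all genes were called lower. The members' median was thus below that of all genes in each quartile, and relative to the median of their own quartile they had a median difference of -0.13, with 31 below and 12 above. BIRC5 (2711 nt) and PLK1 (2227 nt) were in the next to shortest quartile, as was HMMR (3102 nt), and CENPA (1452 nt) was in the shortest. The anaphase genes above 0, UBE2C (914 nt), PTTG1 (1070 nt) and CDC20 (1777 nt), were also in the shortest, where 15.3% of all genes were called higher. ESPL1 (6623 nt), the anaphase gene below 0, was in the longest. The part of transcript length in the members' ratios was not tested.

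**Figure D4:**
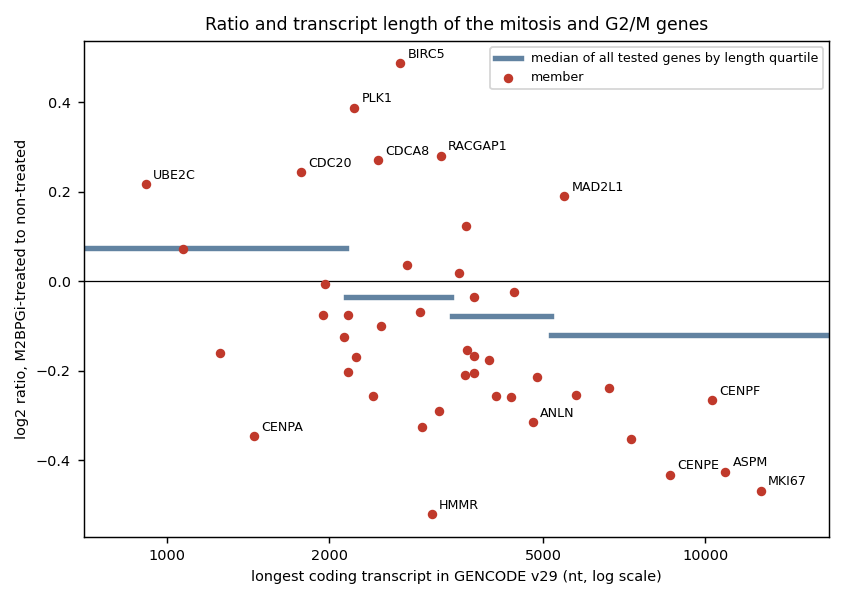
Log2 ratio (M2BPGi-treated to non-treated, 1 CPM added) of the 43 members against the length of the longest coding transcript in nt, on a log scale. Points are members, some of them named, and horizontal bars are the medians of all tested genes in each quartile of length. The medians of all genes go from 0.07 in the shortest to -0.12 in the longest quartile, and CENPE, ASPM, MKI67 and CENPF lie at the lower right.

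Members with and without a CHR form in the 100 bases before the start overlapped in their log2 ratios. The 23 members with a CHR form in the 100 bases before the start had a median log2 ratio of -0.21, with 19 below 0, and ranged from -0.52 (HMMR) to 0.39 (PLK1). The 13 members without it there had a median of -0.16, with 10 below 0, from -0.35 (KIF14) to 0.19 (MAD2L1). Anywhere in the window, 33 of the 36 members (91.7%) held a CHR form, against 20.3% of the tested genes in the table. Most of the 13 therefore have a CHR form elsewhere in the window, and the split is one of position. Median transcript lengths were 3201 and 3576 nt. The 7 members outside the table had a median of 0.02, BIRC5 among them.

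The members were also compared with lists of related genes. The 71 other cell cycle-regulated mitotic genes had a median log2 ratio of -0.04 and summed to 3607 and 3632 CPM. Of these, 8 (11.3%) were called lower and 2 (2.82%) higher, against 18.4% and 9.04% of all tested genes. CASC5, a kinetochore scaffold, fell from 24.3 to 16.7 CPM, and KIFC1, a motor that focuses spindle poles, from 133.9 to 95.1 CPM. PBK, a mitotic kinase, rose from 14.9 to 21.2 CPM, and ZWILCH, a checkpoint protein of the kinetochore, from 31.1 to 39.9 CPM. The 65 genes of constitutive mitotic machinery, such as cohesin and APC/C subunits, had a median of -0.02, with 9 called lower (13.8%) and 2 higher (3.08%). Among them TUBGCP6 fell from 12.3 to 7.72 CPM and TUBGCP3 rose from 10.8 to 23.1 CPM, both of the ring complex that nucleates microtubules. CENPT fell from 59.3 to 39.2 CPM and CENPH rose from 17.6 to 22.3 CPM, both of the inner kinetochore. The members' median of -0.17 was lower than the medians of both mitotic lists, a difference for which no test was made.

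**Figure D5:**
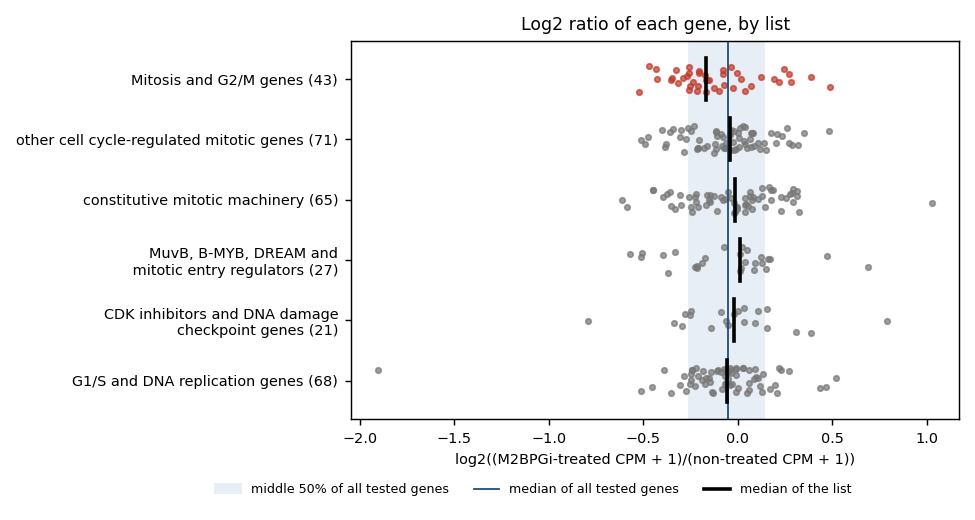
Log2 ratio (M2BPGi-treated to non-treated, 1 CPM added) of the 43 members and of the genes on 5 lists of related genes, with the number of genes in brackets. Each point is a gene with 1 library per condition, black bars are list medians, the shaded band holds the middle 50% of all tested genes and the blue line is their median (-0.05). The members' median is -0.17, and those of the other lists run from -0.06 to 0.01.

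The regulators of the members had values of both signs. The 27 MuvB, B-MYB, DREAM and mitotic entry regulators had a median log2 ratio of 0.01. Of these, 6 (22.2%) were called lower and 2 (7.41%) higher, against 18.4% and 9.04% of all tested genes. MYBL2, which encodes B-MYB and is itself transcribed late in the cell cycle, had 178 and 200.3 CPM (log2 ratio 0.17). NFYA, a subunit of the factor that binds CCAAT boxes, fell from 19.3 to 13.3 CPM. ATM, a kinase of the DNA damage response, fell from 19.7 to 12.95 CPM, and MNAT1, an assembly factor of the kinase that activates CDK1, rose from 23.9 to 39.1 CPM. Of the 21 CDK inhibitors and DNA damage checkpoint genes, 2 were called lower and 2 higher (9.52% each) around a median of -0.02. CDKN2D, an inhibitor of G1 kinases, fell from 21.8 to 12.15 CPM, and the DNA repair gene DDB2 from 14.1 to 10.9 CPM. CDKN2A, another inhibitor gene, rose from 166 to 217 CPM.

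The 68 genes of G1/S and DNA replication, which peak before the members in the cell cycle, had a median of -0.06 and summed to 3194 and 3167 CPM. Of these, 5 (7.35%) were called lower and 3 (4.41%) higher, against 18.4% and 9.04% of all tested genes. The polymerase gene POLE fell from 42.3 to 29.4 CPM. POLD2, a subunit of another replicative polymerase, rose from 97 to 139.7 CPM, and GINS1, part of the replicative helicase, from 12.5 to 17.7 CPM. Near-identical copies were searched for the members and not for the genes on these lists.

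Markers of the cell type were present in both libraries. Of 18 hepatocyte and hepatoma markers, 17 were listed and tested, and they summed to 5172 and 3755 CPM, with FGG the most abundant (1402 and 987 CPM). Their median log2 ratio was -0.30, with 8 called lower (47.1%) and 1 higher (5.88%), against 18.4% and 9.04% of all tested genes. FGB fell from 950.0 to 623 CPM and FGA from 1015 to 687 CPM, both of them fibrinogen genes. FOXA2, a liver transcription factor, rose from 12.8 to 18.4 CPM, and HNF4A, another, had 39.1 and 43.8 CPM. The markers and the members thus both had a median below 0, and the markers' part in the members' ratios was not tested. Of 14 immune cell markers, 4 were listed, with PTPRC, CSF1R and ITGAM at 0 in both libraries and CD68 at 21.2 and 20.5 CPM. Of 12 stromal and endothelial markers, 2 were listed, COL3A1 at 4.53 and 3.42 CPM and COL1A1 at 0.67 and 0.76 CPM.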

How the data were processed

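CAGE libraries of non-treated and M2BPGi-treated PLC/PRF/5 cells were analysed, 1 per condition, grouped by their labels. The authors removed tags of ribosomal RNA or with undetermined bases, clustered the remaining 5′ ends in CAGEr, and deposited 1 CPM value per gene and library with 2 decimals. For mapping, the methods name BWA and a mouse genome (mm9), whereas the submitters' processing notes name BWA, HISAT2 and hg19, and identifiers are those of human genes. The assignment of tags to genes is not given in the sources used here.

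With a pseudocount of 1 CPM, log2 ratios were taken for genes with a mean of at least 1 CPM, and a difference of 0.32 on this scale was the call. Within ±0.005 CPM, 100% of the non-zero values were multiples of a fixed step, so tag numbers were estimated from the step, for 95% Clopper-Pearson intervals only. This procedure was tested on simulated data. The limit set by 0 tags, taken as 3 tags, was 0.125 CPM for the non-treated and 0.121 CPM for the treated library. Near-identical copies were genes that match the first 500 nt of a GENCODE v29 transcript over at least 150 nt at 95% identity or more (BLAST+ 2.17.0). Promoter windows were taken from RefSeq.

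All members are named, ordered by role. From each of the 5 cell cycle lists and the marker lists, the 2 highest and 2 lowest log2 ratios with a mean of at least 10 CPM are named, and FGG, PTPRC, CSF1R, ITGAM, COL3A1 and COL1A1 were named after their values were seen. Of the genes this rule selects, 2 are not reported here. The members and lists were chosen with earlier results of these data known. Alternatives were other pseudocounts, filters, folds and scalings, and members without copies. Python 3.11.15 with numpy 2.4.6, scipy 1.17.1, pandas 2.3.3 and matplotlib 3.10.9 was used.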

Additional observations from a re-analysis of the deposited data

How the results depend on the processing

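The median log2 ratio of the members stayed below 0 under each alternative run. It was -0.12 after rescaling to a median log2 ratio of 0 and -0.13 after rescaling to equal upper quartiles. The summed log2 ratio was -0.035 and -0.049 under these rescalings. The 7 members called lower became 4 with a pseudocount of 5 CPM, 4 under the first rescaling and 4 under the second, where 10.8%, 14.0% and 15.4% of all tested genes were called lower. The 2 called higher became 4 under the first, beside 12.5% of all tested genes. CENPE, DLGAP5 and KIF14 lost their call with this pseudocount, and CENPA, DLGAP5 and KIF14 under both rescalings. At folds of 1.5 and 2 the counts were 0 and 0 in each direction, beside 0.43% of tested genes lower and 0.24% higher at a fold of 2. A larger pseudocount shrinks ratios, and a larger fold calls fewer genes. The first rescaling shifts each member's ratio by 0.05, and the second by up to 0.04, less for genes of low CPM. Members with an interval off an equal share, 33, numbered 27 and 29 under the rescalings. Those below it were 25, and 18 and 20 under the rescalings, and those above it were 8, and 9 under each. This alternative was chosen after seeing the data, as was leaving out members with near-identical copies. Of 215 values of single members under an alternative, 214 moved by less than the counting error and 1 by more, and 0 called values changed sign. An adjusted binomial test of the tags was planned and not run. The tag numbers are estimates from rounded CPM and were used for the counting intervals only. No paired analysis was possible because there is 1 library per condition, and for the same reason no library can be left out. The intervals of 10 of the 43 members included 0, and that of CENPE, the least abundant, ran from -0.83 to -0.17. Variation between cultures was not measured.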
